A study of Mus musculus with 6 samples.

Results

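The clustered protocadherin genes were examined in mouse embryonic stem cells with a knockout of Dppa2 (ECAT15-2), which encodes a chromatin protein with a SAP domain. They were taken as every gene whose symbol begins with Pcdha, Pcdhb or Pcdhg followed by a number, a letter and a number, or a C and a number. A mouse reference gene table lists 58 such genes, 14 of the alpha cluster, 22 of the beta cluster and 22 of the gamma cluster. The array had 43 probes that could be named as one of them through their RefSeq accession, and these stood for 31 of 18512 named genes: 4 alpha genes, all 22 beta genes and 5 gamma genes. The other 27 genes were not matched to a probe and are not analysed here. For 9 genes with several probes, the probe with the highest mean log2 signal over the 6 arrays was used unless stated.

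Total RNA of 6 embryonic stem cell cultures was labelled with Cy3 and hybridized to Agilent whole mouse genome arrays, with 2 arrays in each of 3 groups. The Flag-Dppa2 knockout cells were 15-2-/- and 15-1CT/CT and carried a piggyBac vector in which the ubiquitous CAG promoter drives Flag-tagged Dppa2. The mock knockout cells were the same lines with the vector lacking the Dppa2 insert. The wild-type cells were 15-2+/+ and 15-1+/+ and carried no vector. Here 15-1 is Dppa4, the paralogue and neighbour of Dppa2, and CT is a conditional targeted allele, so both comparisons with wild type also contain that allele and the transduction. All lines came from blastocysts of a mixed 129Sv and C57/BL6 background with a further transgenic parent of unknown background, and all were grown on gelatin in medium with serum and LIF. Replicates 1 and 2 came from different mothers, and the mock and Flag-Dppa2 arrays of one number share a knockout line.

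Clustered protocadherins are cadherin-family proteins of the cell surface that are known mainly from neurons. Each neuron chooses a few of the many promoters in the clusters, the proteins bind to their own kind across cell contacts, and the combination gives a neuron an identity that keeps its branches from crossing each other. In the alpha and gamma clusters a variable exon with its own promoter encodes the extracellular domain and is spliced to constant exons that all genes of that cluster share. The beta genes each encode a whole protein without such shared exons. CTCF and cohesin bring the promoters to distant enhancers, and DNA methylation by Dnmt3b and the chromatin protein Smchd1 are known to restrain them. In embryonic stem cells the clusters are mostly silent or weakly transcribed.

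Levels below are scaled signals, the scanner's processed signal multiplied so that the 75th percentile of each array is 1000. A probe's signal depends on its sequence, so levels are compared between arrays and not between genes. A probe was taken as detected on an array where the scanner marked it well above background. The signal of the dimmest probe so marked was 19.7 to 37.3 over the 6 arrays. Where a group had no detected array, a fold is given as "at least", against the higher of that limit and the probe's own signal on each array. Differences are log2 differences from 1 limma fit of all 6 arrays, with two-sided p-values adjusted after Benjamini and Hochberg over the 18768 features tested, and a gene counted as called below an adjusted p of 0.05.

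The targeted gene followed the labels. Dppa2 had scaled signals of 965 and 1277 in Flag-Dppa2 cells, 234 and 249 in mock cells, and 4378 and 4206 in wild-type cells. Its log2 difference of mock from wild type was -4.15 (adjusted p = 0.00565, limma), while Dppa4 differed by 0.59 (adjusted p = 0.0699, limma). Dppa2 of Flag-Dppa2 cells differed from mock by 2.20 (adjusted p = 0.0268, limma, and 0.0666 with the replicate block). It stayed 3.87-fold below wild type, a log2 difference of -1.95 (adjusted p = 0.0409, limma, and 0.0924 with the replicate block). The 2 wild-type arrays differed by more than the scanner's error at 0.442% of 14943 bright spots, where 5% are due by that error alone, against 24.7% for the Flag-Dppa2 pair and 22.2% for the mock pair. They are therefore counted as 1 sample where levels are given, as a mean with no SD, and some results are also given with both averaged. The limma fit of all 6 arrays still took them as 2 replicates. At the median, the SD of log2 signal was 0.171 within the Flag-Dppa2 pair and 0.151 within the mock pair, but 0.038 within the wild-type pair. That small spread enters the variance used in all 3 comparisons, so SEs and adjusted p-values may be too low. Every call of that fit rests on taking these arrays as 2. Both wild-type and both mock arrays lay on one slide and both Flag-Dppa2 arrays on another, so that slide and group cannot be told apart in comparisons with the Flag-Dppa2 cells. Nothing in the labels says that the samples within a group are more than single cultures of each line, and 2 arrays a group limit the precision.

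Most clustered protocadherin genes were dim or undetected in all cells, and the mock knockout cells had the most detected. Of the 31 genes, 10 and 6 (32.3% and 19.4%) were detected on the Flag-Dppa2 arrays. On the mock arrays it was 12 and 12 (38.7% each), and on the wild-type arrays 5 and 5 (16.1% each). Over all named genes the shares were 70.4% and 68.4% on the Flag-Dppa2 arrays, 67.8% and 70.5% on the mock arrays, and 70% and 68.3% on the wild-type arrays. Of the 22 beta genes alone, 3 and 0 were detected on the Flag-Dppa2 arrays, 6 and 5 on the mock arrays, and 0 and 1 on the wild-type arrays. In bulk RNA, fewer cells that transcribe a gene and less RNA of it per cell cannot be told apart.

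The scanner's limit differed between arrays, being lowest on mock array 2 and highest on wild-type array 2. With 1 common limit of 37.3 for all arrays, a setting chosen after seeing the data, 7 and 6 genes were above it on the Flag-Dppa2 arrays, 10 and 7 on the mock arrays, and 5 and 7 on the wild-type arrays. The excess in mock cells was then seen on mock array 1 only, as mock array 2 and wild-type array 2 both had 7. Of all named genes, 68.8% and 68.1% were above the common limit on the Flag-Dppa2 arrays, 67.4% and 66.4% on the mock arrays, and 69.7% and 69.4% on the wild-type arrays.

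**Figure D1:**
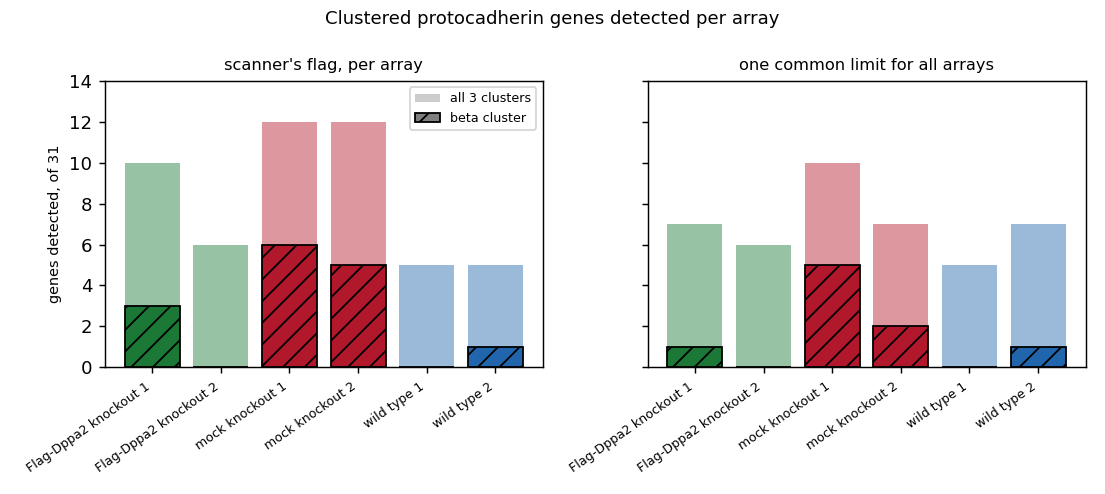
Number of the 31 clustered protocadherin genes detected on each array, with the beta genes hatched, by the scanner's own mark (left) and by 1 common limit of 37.3 on the scaled signal (right). By the scanner's mark both mock arrays had 12 genes, above the Flag-Dppa2 and wild-type arrays, and by the common limit mock array 1 had 10 and every other array 5 to 7.

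Over all 6 arrays, 15 genes were detected on none by the probe used. These were 14 beta genes and Pcdhgb4. Among them Pcdhb19 had a further probe, detected on Flag-Dppa2 array 1 alone. A further 5 genes, Pcdha4, Pcdhb4, Pcdhb15, Pcdhb18 and Pcdhb21, were detected on 1 array each, always one from knockout cells. Pcdhb4 and Pcdha4 were detected on Flag-Dppa2 array 1, at 35.1 and 28.0, Pcdhb15 and Pcdhb21 on mock array 1, at 36.7 and 51.1, and Pcdhb18 on mock array 2, at 35.1. Pcdhb18 read 35.6 on wild-type array 1 without being marked there, and the scanner's limit was lowest on mock array 2. Its mark therefore does not place Pcdhb18 in knockout cells alone. The remaining 11 genes, detected on at least 2 arrays, were tested: 3 alpha, 4 beta and 4 gamma genes.

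**Figure D2:**
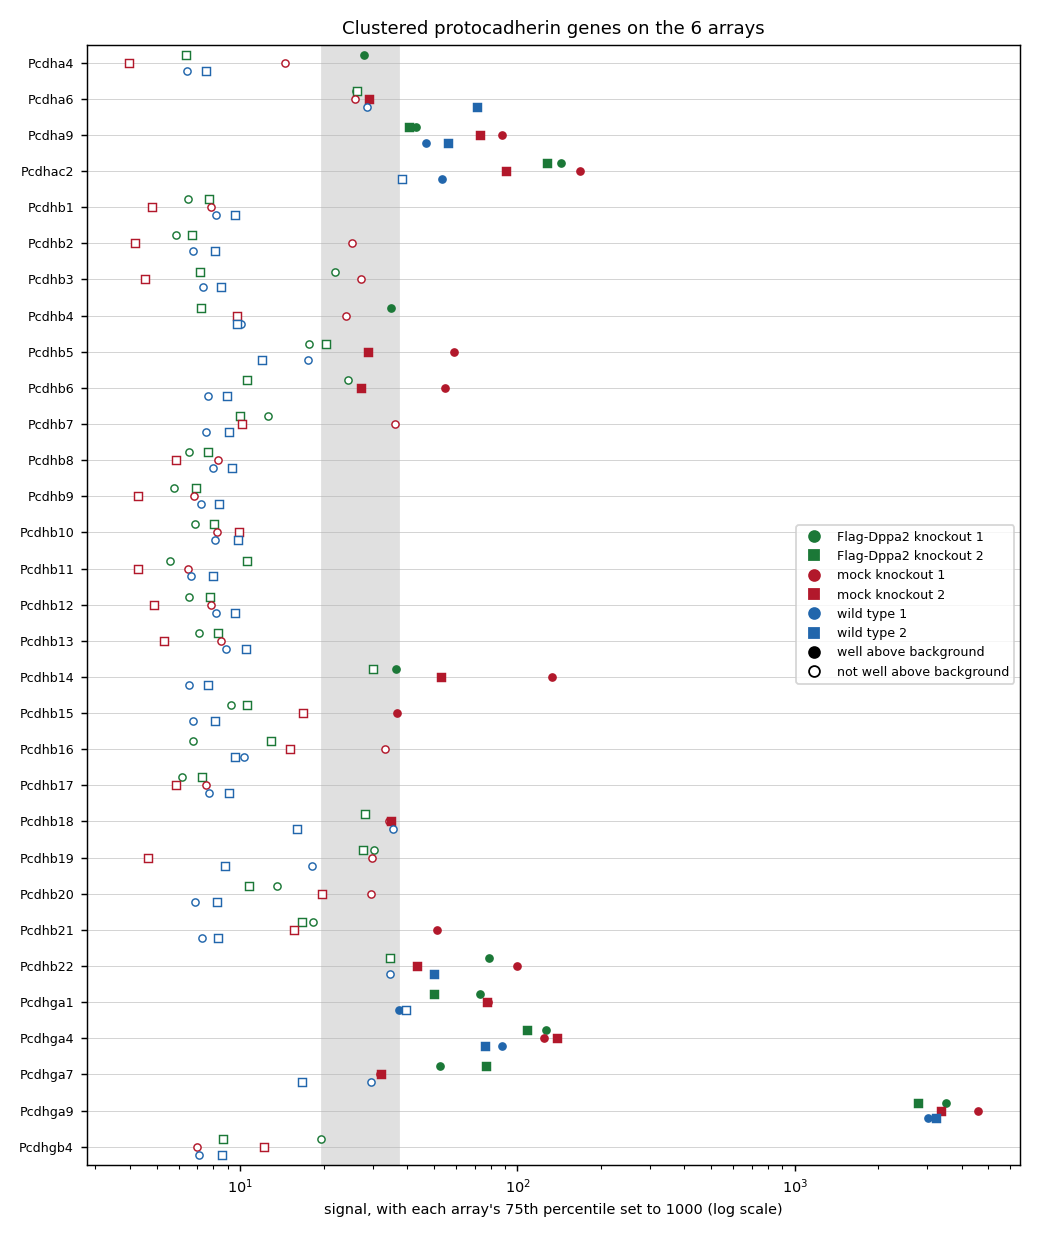
Scaled signal (log axis) of the 31 clustered protocadherin genes, with 1 row per gene, the colour giving the group and the symbol the replicate. Filled points are well above background, open points are not, and the grey band spans the limits of the 6 arrays, 19.7 to 37.3. Pcdhb14 lies between 53.1 and 133 in mock cells, between 30.2 and 36.6 in Flag-Dppa2 cells and under 8 in wild-type cells.

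The beta cluster held the called gene. Pcdhb14 had scaled signals of 36.6 and 30.2 in Flag-Dppa2 cells, 133 and 53.1 in mock cells, and 6.51 and 7.65 in wild-type cells. The 3 groups did not overlap, mock cells were highest, and the wild-type signals were at the level of clustered protocadherin probes detected on no array, whose medians there were 7.64 and 8.95. The group averages were 33.4 ± 4.52 in Flag-Dppa2 cells, 93.0 ± 56.4 in mock cells (SD, n = 2 each) and 7.08 in wild-type cells. The signal was thus at least 2.43-fold higher in mock than in wild-type cells, with a fitted log2 difference of 3.57 (SE 0.47, adjusted p = 0.0336, limma). This call was lost with the replicate number as a block (adjusted p = 0.0546, limma). Averaging the wild-type arrays left 1 sample in that group and the same log2 difference of 3.57. There the call was lost too, as were all other calls of the comparison. The call of Pcdhb14 was also lost on leaving out wild-type array 1 or 2, where the differences were 3.46 and 3.69. It was lost without either Flag-Dppa2 array (adjusted p = 0.0636 each, limma). With normexp background correction the difference was 1.07 (adjusted p = 0.0520, limma). The difference was present in both knockout lines, at 4.24 for line 1 and 2.91 for line 2 against the mean of both wild-type arrays.

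Pcdhb5 and Pcdhb6 had the same order of groups without passing the test. Pcdhb6 had scaled signals of 24.5 and 10.6 in Flag-Dppa2 cells, 54.6 and 27.4 in mock cells, and 7.63 and 8.94 in wild-type cells. Pcdhb5 had 17.7 and 20.4 in Flag-Dppa2 cells, 59.1 and 28.8 in mock cells, and 17.6 and 11.9 in wild-type cells. Both genes were detected on both mock arrays and on no other array, and for both the mock signals were above those of the other groups. Against wild type the mock signal was at least 1.12-fold higher for Pcdhb6 (log2 difference 2.23, SE 0.54, adjusted p = 0.0887, limma) and at least 1.19-fold higher for Pcdhb5 (1.51, SE 0.41, adjusted p = 0.107, limma). Pcdhb5 has a further probe, which was detected on no array, and its scaled signal was 5.62 and 6.72 in Flag-Dppa2 cells, 6.59 and 4.10 in mock cells, and 6.81 and 8.05 in wild-type cells. These are signals at the level of undetected probes, so no direction is read from them.

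Pcdhb22, the last beta gene, had scaled signals of 78.9 and 34.7 in Flag-Dppa2 cells, 99.7 and 43.3 in mock cells, and 34.8 and 49.9 in wild-type cells. Its groups overlapped, and the first of each pair of knockout arrays was the brighter (log2 difference of mock from wild type 0.66, SE 0.60, adjusted p = 0.536, limma).

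The other 18 beta genes failed the filter. Of these, Pcdhb7, Pcdhb15, Pcdhb16, Pcdhb20 and Pcdhb21 had both mock signals above both wild-type signals, with 29.6 to 51.1 on mock array 1 and 10.1 to 19.8 on mock array 2. Pcdhb15 and Pcdhb21 were detected on mock array 1 alone. Pcdhb7, Pcdhb16 and Pcdhb20 were detected on no array, so no direction is read from them. Pcdhb15 had scaled signals of 9.23 and 10.6 in Flag-Dppa2 cells, 36.7 and 16.9 in mock cells, and 6.74 and 8.11 in wild-type cells. Pcdhb21 had 18.3 and 16.6 in Flag-Dppa2 cells, 51.1 and 15.7 in mock cells, and 7.30 and 8.29 in wild-type cells. Mock array 1 stood out in these genes. It held the highest of the 6 signals for 11 of the 22 beta genes and 15 of all 31 clustered protocadherin genes (48.4%), against 15.7% of all named genes.

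Several beta genes had a further probe. The further probes of Pcdhb15 and Pcdhb16 were detected on no array, and neither was the brighter probe of Pcdhb16, so no direction is read from them. Pcdhb19 had one probe that read 249 on Flag-Dppa2 array 1 and 5.05 to 9.44 on the other 5 arrays, so this signal rests on 1 array, and its other probe was detected on none.

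In the alpha cluster, the C-type gene Pcdhac2, whose promoter is used without the random choice of the other alpha genes, was brighter in both kinds of knockout cells than in wild-type cells. The scaled signals were 144 and 128 in Flag-Dppa2 cells, 168 and 90.7 in mock cells, and 53.5 and 38.3 in wild-type cells. The averages were 136 ± 11.5 in Flag-Dppa2 cells, 129 ± 54.8 in mock cells (SD, n = 2 each) and 45.9 in wild-type cells. All 4 knockout signals were above both wild-type signals, and the Flag-Dppa2 and mock cells overlapped. The signal was 2.73-fold higher in mock than in wild-type cells (log2 difference 1.45, SE 0.36, adjusted p = 0.0909, limma) and 2.99-fold higher in Flag-Dppa2 than in wild-type cells (1.58, SE 0.36, adjusted p = 0.116, limma), neither of which passed the test.

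Pcdhac2 had 2 further probes, both detected on all 4 knockout arrays and on neither wild-type array. One had scaled signals of 65.5 and 42.6 in Flag-Dppa2 cells, 125 and 64.4 in mock cells, and 28.8 and 34.5 in wild-type cells. The other had 40.0 and 55.2 in Flag-Dppa2 cells, 65.5 and 53.6 in mock cells, and 19.3 and 19.9 in wild-type cells. Their fitted log2 differences of mock from wild type were 1.51 and 1.60, close to that of the brightest probe. Their differences of Flag-Dppa2 from mock were -0.76 and -0.33, against 0.13 for the brightest probe. When every probe was tested as a feature of its own, a probe of Pcdhac2 was also called in mock against wild type, so that 2 genes of the clusters were called in place of 1.

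Pcdha9 was detected on every array. Its scaled signals were 43.1 and 40.7 in Flag-Dppa2 cells, 88.0 and 73.3 in mock cells, and 46.9 and 56.1 in wild-type cells. Mock cells were highest and Flag-Dppa2 cells lowest, with no overlap between any 2 groups. Its averages were 41.9 ± 1.71 in Flag-Dppa2 cells, 80.7 ± 10.4 in mock cells (SD, n = 2 each) and 51.5 in wild-type cells. Relative to mock cells, the log2 difference of Flag-Dppa2 cells was -0.94 (SE 0.15, adjusted p = 0.110, limma), and relative to wild type that of mock cells was 0.65 (SE 0.15, adjusted p = 0.0847, limma).

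Among the 11 tested genes, Pcdha6 was the one with its highest signal in wild-type cells. Its scaled signals were 26.1 and 26.3 in Flag-Dppa2 cells, 25.8 and 29.1 in mock cells, and 28.6 and 71.4 in wild-type cells. The high value was on wild-type array 2 alone, and mock and wild-type cells overlapped (log2 difference of mock from wild type -0.72, adjusted p = 0.380, limma). Pcdha4 was detected on Flag-Dppa2 array 1 only. In the reference annotation all 14 alpha genes and all 22 gamma genes overlap another gene of their cluster, and none of the 22 beta genes does. The files do not say which exon a probe lies in, so a signal named as one alpha or gamma gene could come from others that share its constant exons, and these values are uncertain in that respect.

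**Figure D3:**
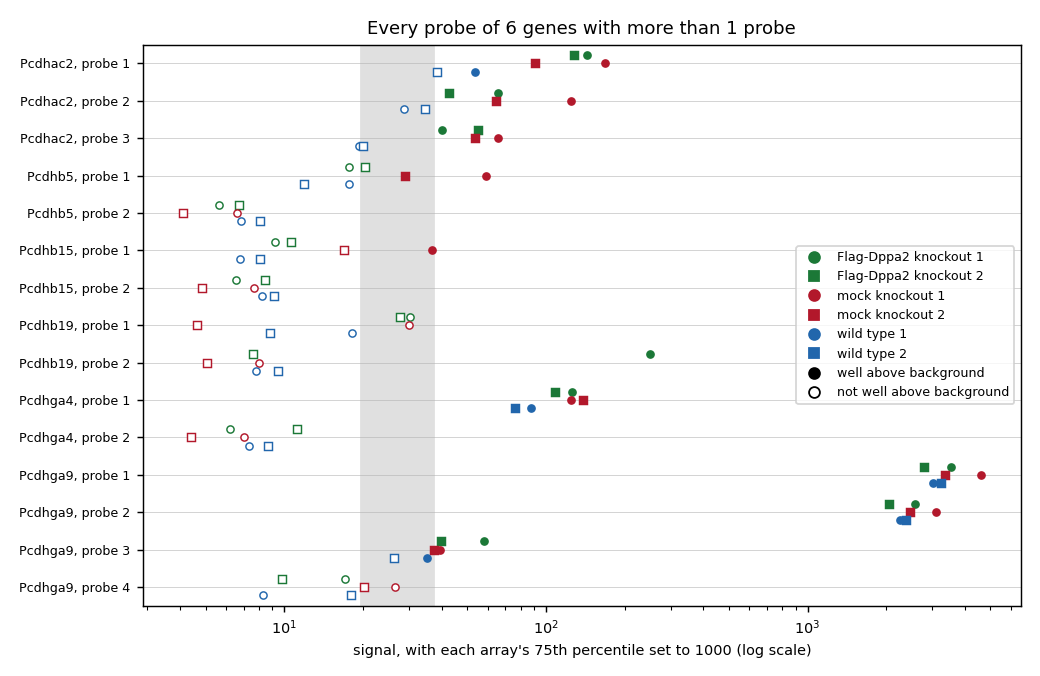
Scaled signal (log axis) of every probe of 6 genes that have more than 1 probe, with groups and symbols as coloured in the key and the limits of the 6 arrays in grey. All 3 probes of Pcdhac2 were higher on the 4 knockout arrays than on the 2 wild-type arrays, while 2 of the 4 probes of Pcdhga9 read 2052 to 4589 and the others 8.27 to 58.1.

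In the gamma cluster, 3 of 5 genes were detected on 5 or 6 arrays. Pcdhga1, the first gamma gene, had scaled signals of 73.1 and 50.1 in Flag-Dppa2 cells, 78.0 and 77.5 in mock cells, and 37.5 and 39.5 in wild-type cells. Pcdhga4 had 126 and 108 in Flag-Dppa2 cells, 125 and 139 in mock cells, and 88.0 and 76.5 in wild-type cells. For both genes all 4 knockout signals were above both wild-type signals. Against wild type, Pcdhga1 was 2.02-fold higher in mock cells (log2 difference 1.02, SE 0.20, adjusted p = 0.0647, limma) and 1.57-fold higher in Flag-Dppa2 cells (0.65, adjusted p = 0.181, limma). Pcdhga4 was 1.61-fold higher in mock cells (0.68, SE 0.14, adjusted p = 0.0684, limma) and 1.43-fold higher in Flag-Dppa2 cells (0.51, adjusted p = 0.155, limma). The further probe of Pcdhga4 was detected on no array.

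Pcdhga7 was the only 1 of the 31 genes with both Flag-Dppa2 signals above both mock signals. Pcdhga7 had 52.3 and 76.8 in Flag-Dppa2 cells, 32.0 and 32.2 in mock cells, and 29.7 and 16.7 in wild-type cells. No 2 groups overlapped, and it was detected on all 4 knockout arrays and on neither wild-type array. It averaged 64.6 ± 17.3 in Flag-Dppa2 cells, 32.1 ± 0.113 in mock cells (SD, n = 2 each) and 23.2 in wild-type cells. The signal in Flag-Dppa2 cells was 1.98-fold that in mock cells (log2 difference 0.98, SE 0.35, adjusted p = 0.355, limma) and at least 1.83-fold that in wild-type cells (1.51, SE 0.35, adjusted p = 0.121, limma).

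The probes of Pcdhga9 gave levels of very different size. The brightest had scaled signals of 3526 and 2778 in Flag-Dppa2 cells, 4589 and 3361 in mock cells, and 3023 and 3243 in wild-type cells, and the next had 2566 and 2052, 3098 and 2464, and 2264 and 2385 in the same cells. The other 2 probes lay between 8.27 and 58.1 on all arrays. The dimmest of the 4 was detected on no array. The log2 difference of mock from wild type was 0.33 for the brightest probe (SE 0.21, adjusted p = 0.389, limma) and 0.25 and 0.34 for the next 2. Of Flag-Dppa2 from mock the brightest had -0.33 and the next 2 had -0.27 and 0.32. Pcdhgb4 was detected on no array, and the C-type genes Pcdhac1, Pcdhgc3, Pcdhgc4 and Pcdhgc5 were not matched to a probe.

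Between mock and wild-type cells, 1 of the 11 tested genes was called, Pcdhb14, as higher, and none as lower. Over the array 2.47% of features were called higher and 3.65% lower. Of the 11 genes, 10 had a positive difference, the exception being Pcdha6, and 7 had an unadjusted p under 0.05, as did 27.3% of all features. The median log2 difference of the 11 was 0.68, against 0.05 over all features tested. It was 0.65 for the 3 alpha genes, 1.87 for the 4 beta genes and 0.61 for the 4 gamma genes. Because a dim gene passed the filter through the group in which it was bright, the 11 cannot stand for the 31.

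Counted over all 31 genes without the filter, 14 genes (45.2%) had both mock signals above both wild-type signals, and 6 (19.4%) had both below. Over all named genes the shares were 28.5% above and 38.9% below. The 6 genes that were below, Pcdhb1, Pcdhb9, Pcdhb11, Pcdhb12, Pcdhb13 and Pcdhb17, were detected on no array, and nor were 3 of the 14 that were above, Pcdhb7, Pcdhb16 and Pcdhb20. The signals of the 6 lay near the level of undetected clustered protocadherin probes, whose median was 7.82 and 4.84 on the mock arrays and 7.64 and 8.95 on the wild-type arrays. By the scanner's mark, 4 of the 31 genes (12.9%), Pcdhb5, Pcdhb6, Pcdhb14 and Pcdhga7, were detected on both mock arrays and neither wild-type array, against 1.11% of named genes. With the common limit only Pcdhb14 (3.23%) was, against 0.621% of named genes. None of the 31 was detected on both wild-type arrays and neither mock array under either limit, against 1.55% and 2.33% of named genes.

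**Figure D4:**
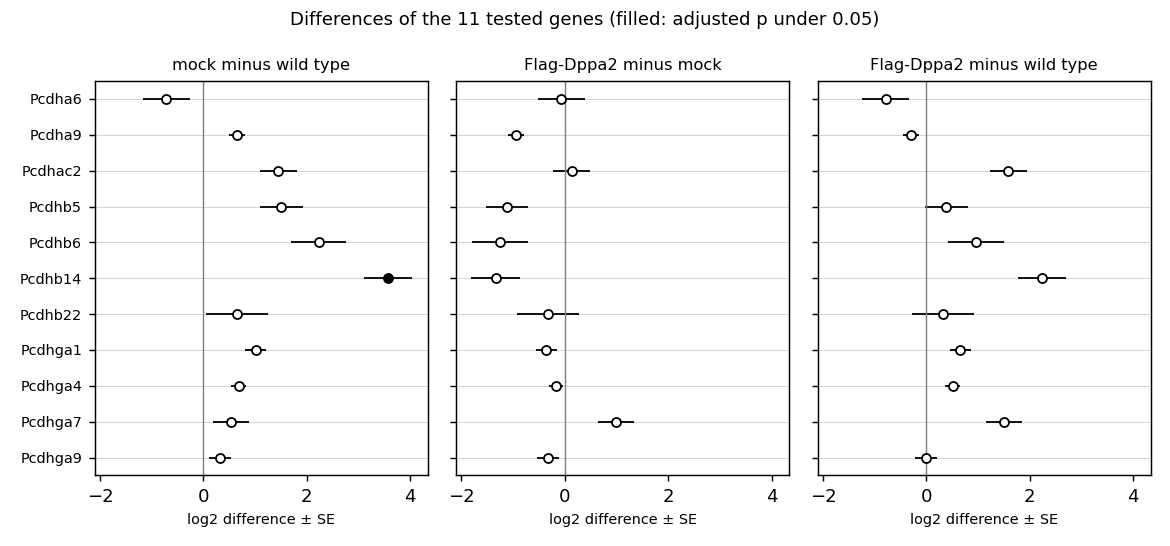
Log2 differences (points) with the SE of the fit (bars) of the 11 tested genes in the 3 comparisons. Filled points passed an adjusted p of 0.05, which held for Pcdhb14 in mock against wild type alone. In that comparison 10 of 11 points are above 0, and in Flag-Dppa2 against mock 9 of 11 are below 0. Some of the 11 passed the filter only through the group in which they are bright.

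Between Flag-Dppa2 and mock cells, none of the 11 genes was called by limma, while 0.703% of all features were called higher and 0.0373% lower, and 4 of the 11 had an unadjusted p under 0.05, as did 13.4% of all features. The beta genes and Pcdha9 had the largest negative log2 differences: -1.34 for Pcdhb14 (SE 0.47, adjusted p = 0.351, limma), -1.26 for Pcdhb6, -1.12 for Pcdhb5 and -0.94 for Pcdha9. Pcdhga1 differed by -0.36, and 9 of the 11 had a negative sign, the exceptions being Pcdhga7 and Pcdhac2. The median was -0.33, against -0.01 over all features tested, and by cluster it was -0.07 for alpha, -1.19 for beta and -0.25 for gamma genes. Pcdhb5 and Pcdhb6 passed the filter through the mock arrays alone, and Pcdhb14 through both mock arrays and 1 Flag-Dppa2 array. The filter thus favoured a fall from mock in these genes, and the medians cannot stand for all genes of the clusters. The mock cells are the lower term here and the upper term in the comparison with wild type, so that a high mock array moves both, and the signs of the 2 comparisons are not independent.

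Over all 31 genes, 10 (32.3%) had both Flag-Dppa2 signals below both mock signals and 1, Pcdhga7 (3.23%), had both above. Over all named genes 15.5% were below and 17.5% above. By the scanner's mark, Pcdhb5 and Pcdhb6 (6.45%) were detected on both mock arrays and neither Flag-Dppa2 array, against 0.4% of named genes. With the common limit this was Pcdhb14 alone (3.23% against 0.308%), and Pcdhga7 was above that limit on both Flag-Dppa2 arrays and neither mock array (3.23% against 1.15%).

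Between Flag-Dppa2 and wild-type cells, again none of the 11 was called by limma, where 0.144% of all features were called higher and 0.389% lower, and 5 had an unadjusted p under 0.05, as did 21.6% of all features. The largest log2 differences were 2.24 for Pcdhb14 (adjusted p = 0.108, limma), 1.58 for Pcdhac2 and 1.51 for Pcdhga7, followed by 0.96 for Pcdhb6 and 0.65 for Pcdhga1. Pcdhb14 was detected on neither wild-type array and only 1 Flag-Dppa2 array, and no fold above 1 is bounded for it, while Pcdhb6 was detected in neither group and has no fold, so that their place in this order is that of fitted values only. The negative ones were -0.79 for Pcdha6, -0.29 for Pcdha9 and a value at 0 for Pcdhga9. The median was 0.51, against 0.03 over all features tested. It comes from genes that passed the filter, some of them only through knockout arrays, and cannot stand for the 31. Over all 31 genes, 13 (41.9%) had both Flag-Dppa2 signals above both wild-type signals and 10 (32.3%) had both below, against 26.5% and 35.4% of named genes. Pcdhga7 was detected on both Flag-Dppa2 arrays and neither wild-type array (3.23% of the 31, against 0.87% of named genes), and also with the common limit (against 0.583%). None of the 31 was detected on both wild-type arrays and neither Flag-Dppa2 array under either limit, against 0.616% and 1.06% of named genes.

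Genes beside and between the clusters were set next to them by their order in the reference annotation. Of 22 tested, 1 was called higher and 1 lower in mock against wild type, with a median log2 difference of 0.18. Each was 4.55% of the 22, against 2.47% of all features called higher and 3.65% lower. The gene called higher was Slc25a2, a mitochondrial ornithine carrier that lies between Pcdhb22 and Taf7, in the gap between the beta and gamma clusters. Its scaled signals were 81.5 and 67.1 in Flag-Dppa2 cells, 173 and 139.6 in mock cells, and 62.6 and 62.5 in wild-type cells. No 2 groups overlapped, and mock cells were highest, as for Pcdhb14. The signal was 2.48-fold higher in mock than in wild-type cells (log2 difference 1.31, adjusted p = 0.0300, limma), and that of Flag-Dppa2 cells differed from mock by -1.07 (adjusted p = 0.101, limma).

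The gene called lower was Arap3, a regulator of small GTPases, which lies 5 genes beyond the gamma cluster. Arap3 had scaled signals of 865 and 678 in Flag-Dppa2 cells, 447 and 407 in mock cells, and 1048 and 1123 in wild-type cells. It fell 2.54-fold in mock against wild type (adjusted p = 0.0265, limma), a call lost with the replicate block (0.0526), while that of Slc25a2 was kept (0.0450). Both calls were lost on leaving out any single wild-type or mock array. Taf7, a subunit of the general transcription factor TFIID that lies next to Slc25a2, was not called (0.15, adjusted p = 0.695, limma). None of the 22 was called in either other comparison by limma. At an unadjusted p under 0.05 there were 6 in mock against wild type, where 27.3% of all features were. In Flag-Dppa2 against mock there were 3 (13.4% of all features), and in Flag-Dppa2 against wild type 4 (21.6%).

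Among regulators known to act on the clusters, 29 were tested. In mock against wild type 1 of them (3.45%) was called lower, against 3.65% of all features. None was called higher, against 2.47% of all features. The gene called lower was Dnmt3b, which adds DNA methylation. Its scaled signals were 21202 and 20542 in Flag-Dppa2 cells, 17632 and 15758 in mock cells, and 27334 and 27730 in wild-type cells. No 2 groups overlapped, and mock cells were lowest. The log2 difference of mock from wild type was -0.72 (adjusted p = 0.0372, limma), lost with the replicate block (0.0656) and on leaving out any single array, and that of Flag-Dppa2 from mock was 0.32 (adjusted p = 0.312, limma). The chromatin protein Smchd1 differed by -0.12, the insulator protein Ctcf by 0.30 and the neural gene repressor Rest by 0.20 between mock and wild-type cells, none of them called (adjusted p = 0.474, 0.473 and 0.381, limma). The 29 had a median log2 difference of 0.22 in this comparison. Of them 9 had an unadjusted p under 0.05 (limma), as did 27.3% of all features. None of the 29 was called in the other comparisons by limma. An unadjusted p under 0.05 was found for 2 in Flag-Dppa2 against mock (13.4% of all features) and 7 in Flag-Dppa2 against wild type (21.6%).

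The other related lists held no called gene in any comparison by limma. They were 16 tested signalling partners and proteases of the cytoplasmic domains, such as Ptk2 and Ptk2b (median log2 difference of mock from wild type 0.19). A list of 12 held protocadherins outside the clusters and also the cadherins Celsr1, Celsr2, Celsr3, Fat1 and Dchs1 (median -0.15). Its members Pcdh1 and Pcdh12 were counted among the neighbours as well. The last list was 14 tested classical cadherins and catenins (median -0.14). At an unadjusted p under 0.05 (limma) these lists held 6, 3 and 3 genes in mock against wild type, where 27.3% of all features were. In Flag-Dppa2 against mock they held 1, 2 and 2 (13.4% of all features). In Flag-Dppa2 against wild type they held 4, 2 and 0 (21.6% of all features). In Flag-Dppa2 against mock the medians were 0.09 for the signalling genes and 0.34 for the list of other protocadherins with Celsr, Fat and Dchs genes. They were -0.06 for the neighbours, 0.03 for the regulators and 0.23 for the classical cadherins and catenins.

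**Figure D5:**
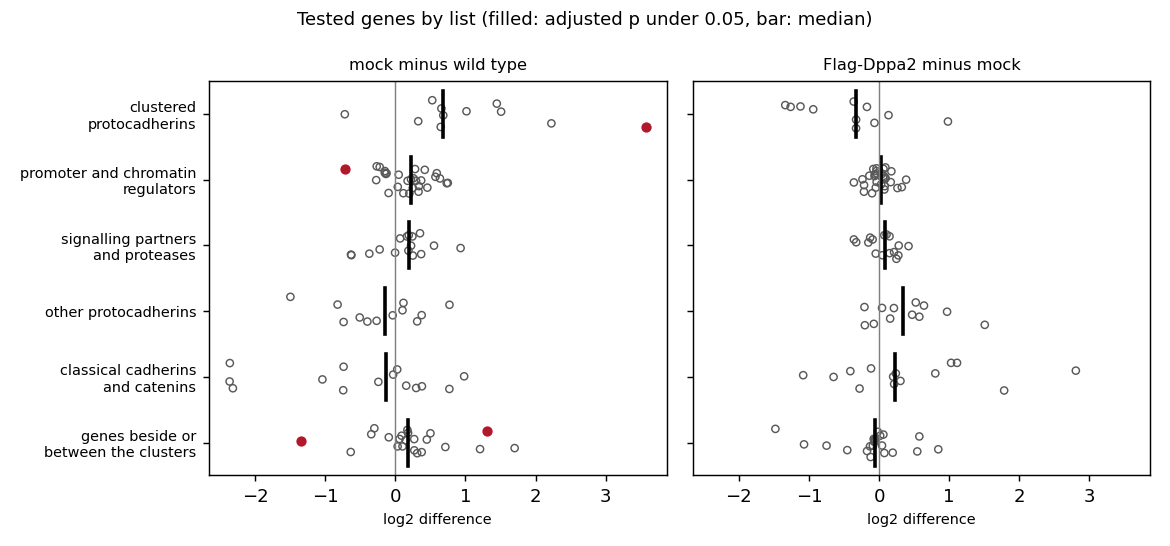
Log2 differences of each tested gene (points), by list, for mock against wild type and Flag-Dppa2 against mock, with the list median as a bar and called genes filled. The 11 tested clustered protocadherins have medians of 0.68 and -0.33 in the 2 comparisons, which share the mock arrays, and some of the 11 passed the filter only through the group in which they are bright.

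Markers of the labelled cell type and of other cells were read beside these results. All 8 embryonic stem cell markers on the array, such as Pou5f1 and Sox2, were detected on every array. Utf1 was called higher in mock than in wild-type cells (log2 difference 0.87, adjusted p = 0.0385, limma). This was 12.5% of the 8, against 2.47% of all features. The unadjusted p (limma) was under 0.05 for 4 of the 8 in this comparison, as for 27.3% of all features. In Flag-Dppa2 against mock it was so for 3 (13.4% of all features), and in Flag-Dppa2 against wild type for 3 (21.6%). Of 12 tested neural markers none was called higher in any comparison by limma. Nes was called lower in mock against wild type (-1.72, adjusted p = 0.0416, limma), 8.33% of the 12 against 3.65% of all features. The calls of Utf1 and Nes were lost with the replicate block (0.0695 and 0.0528). In the same comparison Elavl3 had a log2 difference of 1.01 (adjusted p = 0.162, limma), and Sox1, detected on neither wild-type array, had at least 1.36-fold more signal in mock cells (adjusted p = 0.103, limma). At an unadjusted p under 0.05 there were 3 of the 12 in that comparison, 0 in Flag-Dppa2 against mock and 3 in Flag-Dppa2 against wild type. Over all features these shares were 27.3%, 13.4% and 21.6%. The part of neural cells in the protocadherin values was not tested. Summed over 14 markers the scaled signal was 15150 and 12601 in Flag-Dppa2 cells, 15050 and 12185 in mock cells, and 17655 and 17572 in wild-type cells.

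Fibroblast and feeder cell markers were lower in mock than in wild-type cells. All 11 tested had a negative difference there, while from mock to Flag-Dppa2 cells 8 rose and 3 fell. Fbn1, Loxl1 and Mmp2 were called lower in mock than in wild-type cells and higher in Flag-Dppa2 than in mock cells. Each time this was 27.3% of the 11, against 3.65% of all features called lower and 0.703% called higher. Loxl1 was also called lower in Flag-Dppa2 than in wild-type cells (9.09%, against 0.389%). In the same order, the 3 comparisons held 6, 3 and 4 markers with an unadjusted p under 0.05 (limma). Over all features it was 27.3%, 13.4% and 21.6%. With the replicate block only the 3 calls in mock against wild type were kept, and the adjusted p of the others was 0.0573 to 0.106 (limma). With the wild-type arrays averaged, which left 1 sample in that group, none of these calls was kept. Summed over 13 fibroblast and feeder cell markers, the scaled signal was 3560 and 3225 in Flag-Dppa2 cells, 2802 and 2732 in mock cells, and 6668 and 7020 in wild-type cells. The part of such cells in the protocadherin values was not tested. No endoderm marker of 5 tested and no trophectoderm marker of 4 tested was called by limma. In mock against wild type 2 of each had an unadjusted p under 0.05, as did 27.3% of all features. In Flag-Dppa2 against mock it was 2 endoderm and 0 trophectoderm markers (13.4% of all features), and in Flag-Dppa2 against wild type 2 of each (21.6%). The median log2 difference of the endoderm markers was -0.17 in mock against wild type. It was 1.36 in Flag-Dppa2 against mock (4 of 5 positive) and 1.23 in Flag-Dppa2 against wild type (5 of 5). The endoderm markers summed to 1467 and 878 in Flag-Dppa2 cells, 586 and 261 in mock cells, and 447 and 460 in wild-type cells. The trophectoderm markers summed to 6330 and 11931 in Flag-Dppa2 cells, 6018 and 6738 in mock cells, and 11872 and 11264 in wild-type cells.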

How the data were processed

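Per the file headers, spot intensity values were extracted with Feature Extraction 10.7.3.1, on a linear scale, background-subtracted, with surrogates for very dim spots. The log2 values of the series matrix come from GeneSpring GX 11, used by the authors per the submitters' processing notes, and served for 1 alternative. They correlated with the scanner's log2 values at 1.00, their column medians were 5.84 to 5.86, and they were not centred. The headers name build mm9, and a GRCm38 table was used for names and gene order only, so no coordinates are given. The scanner's deposited flags, of the kind yes or no, gave detection per spot.

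Of 45018 spots per array, 1639 controls and outlier-flagged spots were left out and spots of a probe averaged. Of 41174 probes, 115 with no spot left on some array were dropped, and 27135 of the 41059 kept had 1 symbol, none several and 13924 none. The 75th percentile was 719 to 856 intensity units, and 55.9% to 60.4% of probes were well above background per array. Each array's log2 signals had their 75th percentile subtracted. Features well above background on at least 2 of 6 arrays were kept, with 1 probe per symbol, as 13294 genes and 5474 unnamed probes, and went into 1 limma fit (limma 3.58.1, R 4.3.3, prior degrees of freedom 1.41, residual 3), tested on simulated data. Figures used Python 3.11.15, numpy 2.4.6, pandas 2.3.3 and matplotlib 3.10.9.

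Bright spots for the array pairs had an intensity of at least 200. The replicate number pairs mock and Flag-Dppa2 arrays of one line, and wild type shares the mother. The deviations of same-numbered arrays correlated at 0.59 for mock and Flag-Dppa2, -0.04 for wild type and mock, and 0.01 for wild type and Flag-Dppa2. Alternatives were the replicate block, averaged wild-type arrays, fewer groups, left-out arrays, normexp (on median spot signals, as mean signals were not used here), quantile normalization, other filters and probe choices, and an intensity trend. Named genes are those called, those well above background on all arrays, the 5 largest differences each way, C-type genes, genes whose probes differ in direction, called genes of the lists, Smchd1, Ctcf, Rest, Dnmt3b, Taf7, Dppa2 and Dppa4. The members and lists were chosen with earlier results of these data known.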

Additional observations from a re-analysis of the deposited data

Results flagged for a closer look

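These signals were outside the tests, as probes that failed the filter or were not the brightest of their gene, and were detected in knockout cells above both wild-type arrays. In Flag-Dppa2 cells, on array 1, Pcdha4 read 28.0 (wild type 6.45 and 7.50), Pcdhb4 read 35.1 (wild type 10.1 and 9.75) and the dimmer of the 2 probes of Pcdhb19 by mean log2 signal read 249 (wild type 7.81 and 9.44), each detected on that array alone. In mock cells, on array 1, Pcdhb15 read 36.7 (wild type 6.74 and 8.11) and Pcdhb21 read 51.1 (wild type 7.30 and 8.29), again on 1 array each. The other 2 probes of Pcdhac2 had their highest signals on the same mock array, at 125 (wild type 28.8 and 34.5) and 65.5 (wild type 19.3 and 19.9), and were detected on all 4 knockout arrays.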

How the results depend on the processing

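In mock against wild type, 1 gene, Pcdhb14, was called. The count was 0 with the replicate block, with wild-type arrays averaged, with no filter on dim probes (31 genes tested) and with the filter of all 6 arrays (3 tested, Pcdhb14 not among them), and 0 to 1 with an array left out. It was 1 by normexp, with Pcdhb6 in place of Pcdhb14, and 1 with only these 2 groups, the arrays of slide 1, or without either Flag-Dppa2 array, with Pcdhga1 in place of Pcdhb14. It was 4 by quantile normalization and by the series matrix (Pcdha9, Pcdhb14, Pcdhga1 and Pcdhga4) and 2 with every probe tested. The adjusted p of Pcdhb14 ranged up to 0.261 over these settings, and without a wild-type array it was 0.255 or 0.242. Its log2 difference was 1.07 by normexp. The cause was not tested. No call was made in the other comparisons, with or without the replicate block.

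The median in mock against wild type, 0.68, was 0.38 by normexp, 0.91 by quantile normalization, 0.91 by the series matrix, and 0.68 to 1.02 with an array left out. In Flag-Dppa2 against mock, -0.33 became -0.18 by normexp, -0.45 by quantile normalization, -0.45 by the series matrix, -0.17 with no filter, and -0.64 to -0.089 with an array left out. In Flag-Dppa2 against wild type, 0.51 became a value of -0.00046 for the 3 genes of the strictest filter, and 0.38 to 0.92 with an array left out. Detection on mock array 2 was 7 in place of 12 with the common limit, added after seeing the data.

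None of the reversed differences was called. With an array left out, Flag-Dppa2 against mock ranged from -0.93 to 0.27 for Pcdhb22, -0.31 to 0.58 for Pcdhac2 and -0.15 to 0.021 for Pcdha6. Flag-Dppa2 against mock turned for Pcdhb22 to 0.27 without mock array 1 and 0.26 without Flag-Dppa2 array 2, for Pcdhac2 to -0.31 without mock array 2 and -0.32 with the mean of its probes, for Pcdha6 to 0.021 without mock array 2, and for Pcdhga4 to 0.21 with the mean of its probes. Flag-Dppa2 against wild type turned for Pcdhb22 to -0.26 without Flag-Dppa2 array 1, and for Pcdhga9 to 0.05 without wild-type array 2, 0.17 without Flag-Dppa2 array 2, 0.028 by normexp and 0.18 with the mean of its probes. Dim signals near the background and 2 arrays a group limit all these values.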
